A study of Mus musculus with 8 samples.

Results

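The 4 AMPA receptor subunit genes (Gria1, Gria2, Gria3 and Gria4) and the 5 kainate receptor subunit genes (Grik1, Grik2, Grik3, Grik4 and Grik5) were followed through single-nucleus RNA sequencing of mouse hippocampus. They were selected by gene symbol alone, and all 9 were found among the 30211 gene rows shared by the 8 libraries. Each library held nuclei from the hippocampi of 1 mouse on a C57BL/6 background by the labels, C57BL/6N in the study's methods. Aged 7 months, 3 mice were wild type (WT) and 3 were GKO, a constitutive deletion of loxP-flanked Gsap exons made with CMV-Cre. Aged 6 months, 1 mouse was J20;WT and 1 was J20;GKO, where J20 is a transgene of human APP with the Swedish and Indiana mutations driven by the human PDGFB promoter. Males and females were used, and no J20 genotype had a second mouse.

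Both families form glutamate-gated cation channels from 4 subunits. AMPA receptors carry most of the fast excitatory current at central synapses, and a receptor that includes the Gria2 product (GluA2) hardly passes calcium, whereas one without it does. Kainate receptors act at both sides of the synapse: the Grik1, Grik2 and Grik3 products can form channels alone, while the high-affinity Grik4 and Grik5 products need one of those 3 as a partner, and the mossy fibre synapse onto CA3 is their best-known hippocampal site.

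The pore of each subunit holds a glutamine codon, the Q/R site. In Gria2 RNA it is edited almost completely to read as arginine, in Grik1 and Grik2 RNA in part, and the genes themselves carry glutamine throughout. Coding windows of 45 bases around it are shown for 6 members because the levels and the Gria2 share below concern these subunits, and because the shared stretch shows how alike the families are at the point that sets calcium entry. The Q/R codon is in capitals, read 5′ to 3′ on the coding strand of the GRCm38 GENCODE M21 transcripts.
Gria1: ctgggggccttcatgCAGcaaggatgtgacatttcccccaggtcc
Gria2: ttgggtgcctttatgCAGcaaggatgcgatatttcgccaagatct
Gria4: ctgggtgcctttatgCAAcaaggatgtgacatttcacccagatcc
Grik1: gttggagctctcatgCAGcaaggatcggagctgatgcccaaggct
Grik2: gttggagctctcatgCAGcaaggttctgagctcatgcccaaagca
Grik4: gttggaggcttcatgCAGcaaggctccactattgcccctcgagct
Over this window any 2 of the 4 AMPA genes shared 80.0% to 91.1% of bases, with Gria2 and Gria3 the most alike pair. Grik1 and Grik2 shared 88.9%, and the least alike of all pairs, Grik3 and Grik4, shared 55.6%. UMIs were counted per gene, so neither editing at this codon nor splice forms could be seen in the values.

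The genes lie apart in the genome and are long. On GRCm38, Gria1 (ENSMUSG00000020524) spans chr11:57011387-57330244 on the plus strand, Gria2 (ENSMUSG00000033981) chr3:80681450-80802835 on the minus strand, Gria3 (ENSMUSG00000001986) chrX:41400854-41678601 on the plus strand and Gria4 (ENSMUSG00000025892) chr9:4417896-4796234 on the minus strand. Grik1 (ENSMUSG00000022935) spans chr16:87895900-88290265, Grik2 (ENSMUSG00000056073) chr10:49094833-49788766, Grik4 (ENSMUSG00000032017) chr9:42518135-42944493 and Grik5 (ENSMUSG00000003378) chr7:25009849-25072346, all on the minus strand, and Grik3 (ENSMUSG00000001985) spans chr4:125490700-125714173 on the plus strand. Gria3 is the only X-linked member.

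After filtering, 32041 nuclei remained (2731 to 5252 per library, with 21020159 to 43310978 UMIs), and 17 types were named from marker genes, with at least 10 nuclei of each in every library. The names are written "-like", since the nuclei were clustered anew. Marker lists were not met equally: 4 of 9 CA3 markers, 3 of 7 CA1 markers, 4 of 8 subiculum markers and 4 of 7 Lamp5 markers were highest in the type of that name, and the single cluster called CA3-like (led by Nectin3, Homer3 and Iyd among its markers) had its highest mean marker score for mossy cells, for which no cluster was named. Outside the 17 types, 2135 excitatory and 1064 inhibitory nuclei stayed in clusters without a name, some of them rich in doublet calls, and are left out of the pooled classes unless stated. Finally, 1 excitatory group labelled by upper-layer cortex markers had its own highest level for just 1 of those 6 markers and is therefore called by its leading genes, the Pdzrn3/Cux2-led neurons. Gsap itself stood at 22.6 ± 0.4 CPM (UMIs per 1000000, SD, n = 3) in WT and 21.2 ± 1.2 in GKO libraries over all nuclei. Its 3′ reads can lie outside the deleted exons, so this level checks no label. The mice numbered 1 in both groups bear an earlier date in the deposited names and differed from the other 4 WT and GKO mice in the X-linked Xist (2259 and 2135 CPM against 1.68 to 1.99), as did J20;GKO (2410.0 CPM) from J20;WT (3.00 CPM). Date, replicate number and sex-linked expression cannot be told apart in the former mice, nor genotype and sex-linked expression in the latter pair. The Y-linked Eif2s3y went the other way, at 0.09 to 0.12 CPM in WT 1, GKO 1 and J20;GKO and 119 to 251 CPM in the other libraries. By these genes the J20 pair sets a female J20;GKO mouse against a male J20;WT mouse. Libraries shared at most 21 barcodes.

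**Figure D1:**
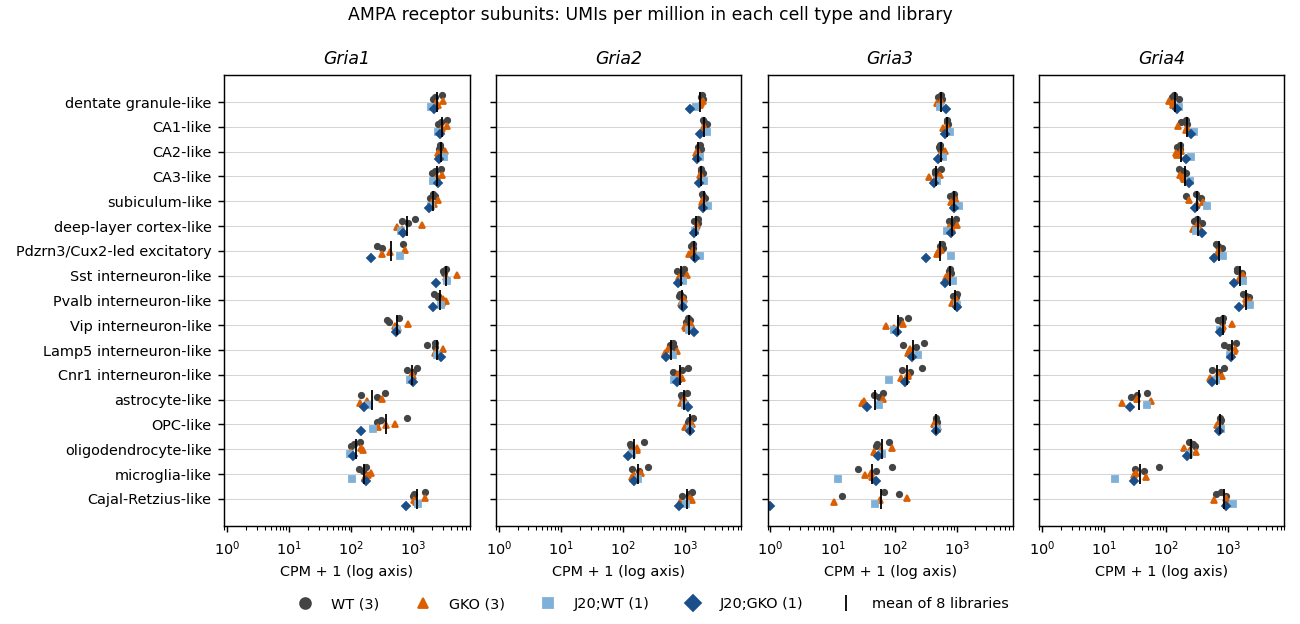
CPM plus 1 on a log axis for Gria1 to Gria4 in 17 cell types, with 1 symbol per library (grey circles WT, orange triangles GKO, blue square J20;WT, blue diamond J20;GKO) and a black tick at the mean of 8 libraries. Gria4 lies between 1487 and 2259 CPM in Pvalb interneuron-like nuclei and between 109 and 161 CPM in dentate granule-like nuclei.

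Among the AMPA subunits, pooled interneurons and pooled excitatory neurons differed most in Gria4 and Gria2. With the 5 interneuron types pooled and the 7 excitatory types pooled in each library, Gria4, the subunit of rapidly gating channels, stood at 1332 ± 139 CPM in interneurons and 231 ± 29.4 in excitatory neurons (SD, n = 8), 5.76-fold higher and higher in 8 of 8 libraries. Gria2 went the other way, with 832 ± 49.7 CPM in interneurons and 1813 ± 126 in excitatory neurons, and was lower in interneurons in 8 of 8 libraries. Gria3 was also lower in interneurons in every library (531 ± 38.0 against 629 ± 46.8 CPM), while Gria1 was higher in interneurons in 5 of 8 (2357 ± 324 against 2265 ± 273 CPM), a direction that turned with TMM scaling (4 of 8, -0.059 on the log2 scale). TMM scaling, added as an alternative after the data were seen, moved the median of all genes from 0.09 to -0.03 and left the directions of the other 8 members as they were, with Gria4 at 5.33-fold. With the unnamed nuclei added to both pools, also after the data were seen, all 9 kept their direction, but Gria4 stood at 3.76-fold and Gria1 was higher in interneurons in 7 of 8 libraries. Among the 8178 genes with at least 20 CPM in either class, 31.6% were higher in interneurons in all 8 libraries and 23.2% were lower, so a split without exception was common; the sizes for Gria4 and, below, Grik1 are what the pooled values add.

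Gria1, the subunit tied to activity-dependent insertion at synapses, had its highest mean in Sst-like interneurons, where the 8 libraries ran from 2304 through a median of 3328 to 5111 CPM. CA1-like neurons followed, with 2500 to 3523 CPM and a median of 2760.4. The ranges overlapped, and Sst-like exceeded CA1-like nuclei in 6 of 8 libraries (0.22 on the log2 scale, exact sign-flip permutation test, adjusted p = 0.149). The subunit did not mark interneurons as a class. Vip-like interneurons held 376 to 801 CPM, with a median of 529, below every library of the Sst-like nuclei. Among excitatory neurons the hippocampal fields and subiculum-like nuclei had means of 2054 to 2870.0 CPM, the deep-layer cortex-like nuclei 792 ± 277 CPM and the Pdzrn3/Cux2-led neurons 438 ± 203 CPM.

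Neighbours in the order of the 17 means were tested for every member with an exact 2-sided sign-flip permutation test over 8 libraries, whose smallest possible p is 0.00781, and adjusted over the 144 neighbour pairs; 33 pairs were separated, each at the adjusted value of 0.0341. With TMM scaling 27 were, 12 of them among the 33, and the highest means of Gria1 and Gria3 then lay in CA1-like and subiculum-like neurons. For Gria1, 3 steps were separated: subiculum-like over Cajal-Retzius-like nuclei (0.88 on the log2 scale), deep-layer cortex-like over Vip-like nuclei, and microglia-like over oligodendrocyte-like nuclei. A neighbour pair that missed the threshold was not thereby shown to be alike.

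Gria2, which makes the receptor calcium-impermeable, varied least between types among the AMPA genes, 13.4-fold from the highest mean to the lowest. Its highest mean was in CA1-like neurons, where the 8 libraries ran from 1715 through 2013 to 2244 CPM, and subiculum-like neurons were 1.02-fold lower, a step not separated from CA1. Among interneurons, Lamp5-like nuclei ran from 481 through 601 to 736 CPM and Vip-like nuclei from 992 through 1128 to 1378 CPM, without overlap. The separated steps were subiculum-like over CA3-like (0.11), CA2-like over deep-layer cortex-like and Lamp5-like over microglia-like nuclei.

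Gria3 divided the interneurons. Pvalb-like nuclei ran from 849 through 962 to 1028 CPM, the highest mean of the 17 types, and Vip-like nuclei from 70.3 through 113 to 164 CPM. Subiculum-like neurons, second in order, overlapped the Pvalb-like range with 787 to 1069 CPM. CA1-like neurons exceeded CA2-like ones (0.33) and CA3-like neurons exceeded Lamp5-like interneurons (1.26), both separated.

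Gria4 had the clearest top of the AMPA genes. Pvalb-like interneurons ran from 1487 through 1952 to 2259 CPM and were the highest of the named types in 8 of 8 libraries. They were separated from Sst-like interneurons (0.36), which were separated from Lamp5-like ones (0.43). Dentate granule-like neurons held 109 to 161 CPM, with a median of 130.3, below the means of all interneuron types. Some other excitatory groups reached interneuron levels. The Pdzrn3/Cux2-led neurons had a mean of 703 CPM, against 658 CPM in Cnr1-like interneurons. An unnamed excitatory cluster of 320 nuclei, led by 9330185C12Rik and Plch1, held 766 through 1439 to 1758 CPM. Outside neurons, OPC-like nuclei (oligodendrocyte precursors) held 660.2 through 719 to 762 CPM, within the span of the interneuron types' means. Cajal-Retzius-like nuclei held 592 to 1168 CPM, in counts as small as 48 UMIs per library.

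**Figure D2:**
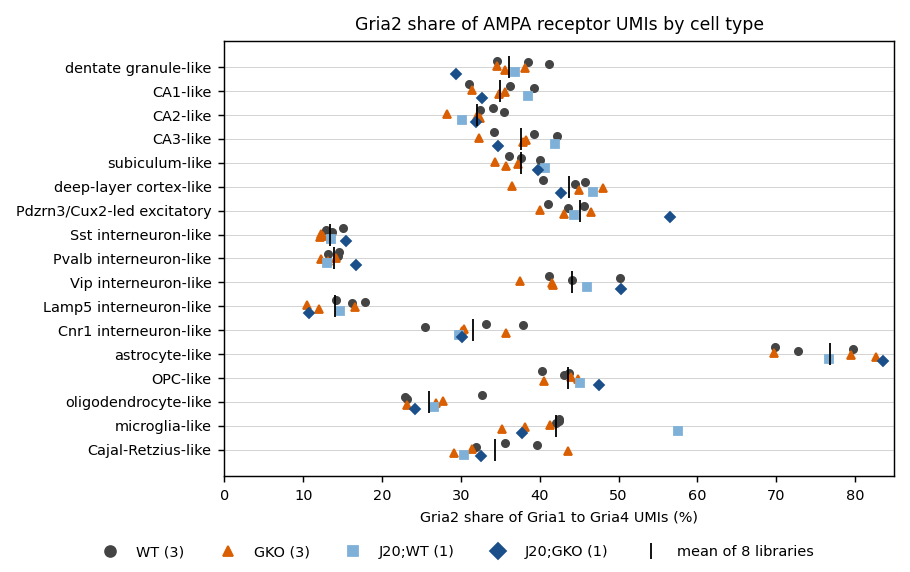
Share of Gria2 in the summed UMIs of Gria1 to Gria4 (percent) in 17 cell types, with 1 symbol per library and a tick at the mean. Sst-, Pvalb- and Lamp5-like interneurons sit near 14%, apart from the excitatory types at 32.1% to 45.1% and from Vip-like interneurons at 44.1%.

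The share of Gria2 in all AMPA subunit UMIs sets these levels against each other within a nucleus type. It is a share of counted 3′ tags, not of protein or molecules, because capture differs between genes, and it is read here only across types and libraries. In excitatory neurons it was 36.8% ± 2.45 and in interneurons 16.6% ± 1.42 (SD, n = 8), a difference of -20.2 percentage points that had the same sign in 8 of 8 libraries (exact sign-flip permutation test, p = 0.00781, the smallest it can give). With the unnamed nuclei in both pools it was -14.5 points, lower in 8 of 8. Interneuron types were not alike. Means were 13.4% in Sst-like, 13.9% in Pvalb-like and 14.1% in Lamp5-like nuclei, but 31.6% in Cnr1-like and 44.1% in Vip-like nuclei, which lay in or near the excitatory range of 32.1% (CA2-like) to 45.1% (Pdzrn3/Cux2-led). In every library the Vip-like share (37.6% to 50.4%) exceeded the Sst-like share (12.1% to 15.4%). The counting error was small beside this: the Vip-like share with the widest interval, 46.0% in J20;WT, had a 95% Wilson interval of 40.0% to 52.0%, which covers counting error only. Astrocyte-like nuclei had the highest mean share, 76.8%, since their Gria1, Gria3 and Gria4 levels were low.

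**Figure D3:**
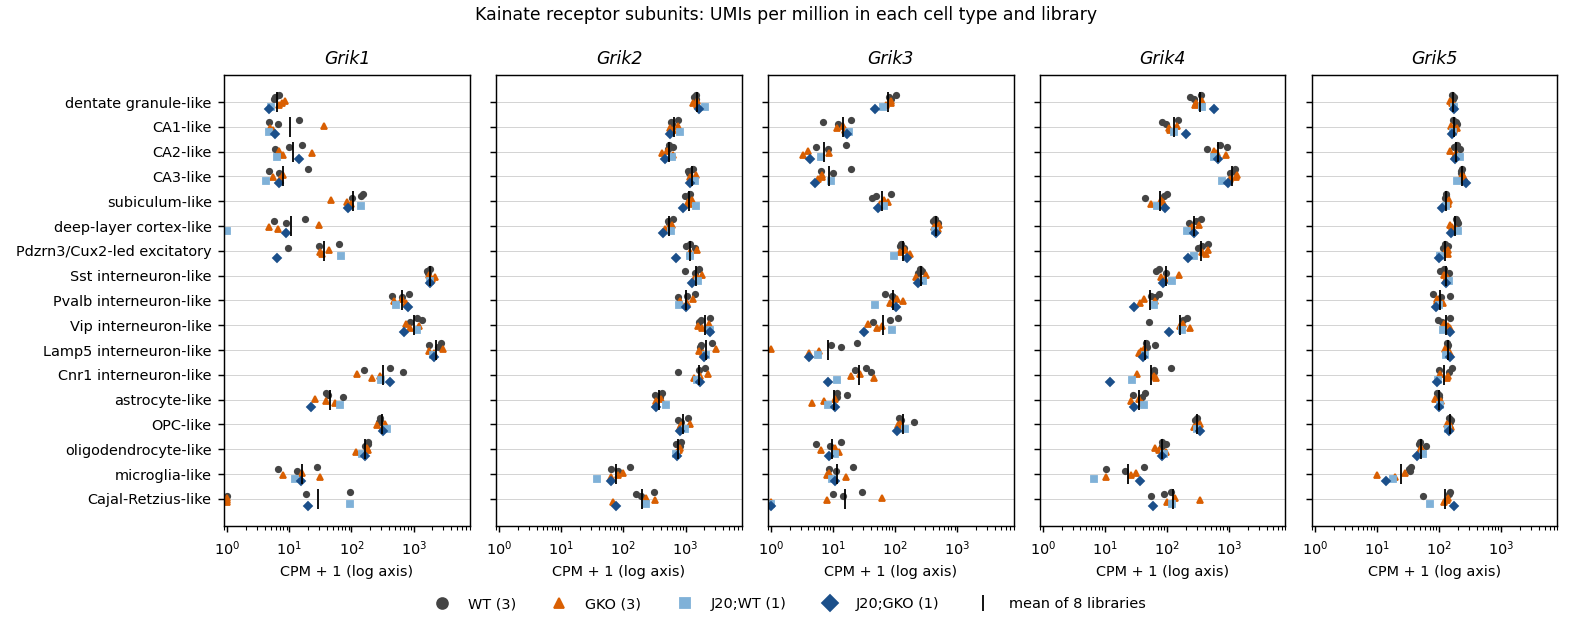
CPM plus 1 on a log axis for Grik1 to Grik5 in 17 cell types, drawn as for the AMPA genes. Grik1 lies between 1749 and 2971 CPM in Lamp5 interneuron-like nuclei and between 3.66 and 7.61 CPM in dentate granule-like nuclei, and Grik4 is highest in CA3-like nuclei in 8 of 8 libraries.

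Among the kainate genes, Grik1, Grik3 and Grik4 each had their high levels in a few neuron types. Grik1 stood at 1382 ± 98.4 CPM in pooled interneurons and 19.9 ± 5.59 in pooled excitatory neurons. The 69.3-fold difference was seen in 8 of 8 libraries (63.8-fold with TMM scaling, and 24.5-fold with the unnamed nuclei in both pools). Lamp5-like nuclei ran from 1749 through 2129 to 2971 CPM and Sst-like nuclei from 1657 through 1828 to 2235 CPM, an overlap that left the pair unseparated. Cnr1-like interneurons held less, 123 to 676 CPM with a median of 291. Dentate granule-like neurons ran from 3.66 through 5.31 to 7.61 CPM, 419-fold under the Lamp5-like mean. Among the 7 named excitatory types the subiculum-like group held the most, at 46.6 through 99.4 to 154 CPM, separated from both of its neighbours in the order (oligodendrocyte-like above, astrocyte-like below). An unnamed excitatory cluster of 423 nuclei, led by Kcnip1 and Cntn6 and with Grik1 itself among its 10 leading genes, held more, at 369 through 595 to 844 CPM. Grik1 made up 49.6% of kainate subunit UMIs in Lamp5-like, 49.3% in Sst-like, 33.5% in Pvalb-like, 29.5% in Vip-like and 15.8% in Cnr1-like nuclei.

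Grik2 was broadly present and had the highest mean of the kainate genes in pooled excitatory neurons and in pooled interneurons alike. Lamp5-like nuclei ran from 1660.0 through 1944 to 3074 CPM and Vip-like nuclei from 1591 through 2116 to 2508 CPM, not separated. Among excitatory neurons, dentate granule-like nuclei held 1310.0 through 1495 to 2041 CPM and CA3-like nuclei 1105 through 1206 to 1492 CPM. CA1-like neurons held 562 through 615 to 809 CPM, below every library of both of those types. Grik2 supplied 72.5% of kainate subunit UMIs in dentate granule-like and 66.9% in CA1-like neurons. It was higher in pooled interneurons than in pooled excitatory neurons in 8 of 8 libraries (1604 ± 318 against 1120 ± 149 CPM), and in 7 of 8 with TMM scaling.

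Grik3, whose product forms channels of low glutamate sensitivity, had 1 clear peak among the named types. Deep-layer cortex-like neurons ran from 406 through 443 to 503 CPM and were the highest of these types in 8 of 8 libraries. They were separated from Sst-like interneurons (215 through 253 to 306 CPM, 0.83 on the log2 scale). The Sst-like nuclei were in turn separated from the Pdzrn3/Cux2-led neurons (0.96). The unnamed Kcnip1/Cntn6-led excitatory cluster of 423 nuclei overlapped the deep-layer cortex-like range, at 338 through 377 to 536 CPM. CA1-like neurons held 5.97 to 18.1 CPM and CA2-like neurons a mean of 5.99 CPM, so the hippocampal pyramidal fields were near the bottom of the order. In deep-layer cortex-like neurons Grik3 made up 31.2% of kainate subunit UMIs.

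Grik4, one of the high-affinity subunits, had its highest means in CA3-like and CA2-like neurons. CA3-like neurons ran from 749 through 1122 to 1311 CPM and were highest of the named types in 8 of 8 libraries. An unnamed cluster of 227 nuclei held 679 through 806 to 1025 CPM. CA3 was its best list, but its leading genes included the mossy cell marker Calcrl and no CA3 marker. CA2-like neurons ran from 439 through 644 to 899.9 CPM and were separated from CA3-like ones (0.73) and from the next type, the Pdzrn3/Cux2-led neurons (0.92). The ranges of CA2-like and Pdzrn3/Cux2-led neurons overlapped, as the latter reached 454 CPM in a mouse numbered 1. CA1-like neurons held 80.7 through 118 to 200.5 CPM and subiculum-like neurons 43.1 through 82.7 to 98.1 CPM, both without overlap with CA2 or CA3. Grik4 supplied 47.1% of kainate subunit UMIs in CA2-like and 42.0% in CA3-like neurons. Pooled excitatory neurons exceeded pooled interneurons 4.65-fold (351 ± 39.6 against 75.5 ± 10.9 CPM), in 8 of 8 libraries, and with the unnamed nuclei the means were 343 and 98.0 CPM.

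Grik5, the other high-affinity subunit, varied least of the 5, 10.2-fold from the highest mean to the lowest. CA3-like neurons led with 192 through 231 to 267 CPM and CA2-like neurons were 1.25-fold lower, not separated. Dentate granule-like neurons were separated from OPC-like nuclei (0.18), astrocyte-like from oligodendrocyte-like (0.95) and oligodendrocyte-like from microglia-like nuclei (1.22), the last holding 22.9 ± 9.72 CPM.

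Glial values have to be read beside the level that excitatory neuron markers reach in the same nuclei, since every glial type held some UMIs of these markers. The source of those UMIs was not tested. The 8 excitatory markers stood in microglia-like nuclei at 6.02% to 31.5% of their level in excitatory neurons, and 8 of the 9 members lay between 6.26% and 16.1%, within that range. Grik1 is barely present in excitatory neurons and was set against interneurons instead: it stood at 1.10% of its interneuron level, where the interneuron markers Gad1, Gad2 and Slc32a1 stood at 2.68% to 4.77%. Values in microglia-like nuclei are therefore treated as background for all 9. In astrocyte-like nuclei the markers spanned 6.70% to 25.2%, and Gria2 (53.2%), Grik5 (57.1%) and Grik2 (33.7%) were above them. Grik1 stood at 44.2 CPM against 1382 in interneurons, a smaller share than the 4.48% of Gad1, and is read as background there too. In OPC-like nuclei, where the markers spanned 10.4% to 50.9%, 7 of the other 8 members were above and Gria1 (15.6%) was not, with Gria4 at 313% and Grik3 at 179%. Grik1 stood there at 22.4% of its interneuron level, against 1.57% to 18.0% for Gad1, Gad2 and Slc32a1, and Gria4 at 54.2%. Oligodendrocyte-like nuclei, with markers at 5.39% to 27.3%, were above for Gria4 (107%), Grik2 (68.3%) and Grik5 (29.4%), whereas Gria1 (5.19%) and Gria2 (8.29%) were not. Against interneurons, Grik1 stood at 11.9% and Gria4 at 18.5%, above the 2.46% to 3.72% of Gad1, Gad2 and Slc32a1.

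Some types divided into subgroups in which the members differed. These were found with the members and their partner genes left out of clustering, and are described without a test. CA1-like neurons split into a Galntl6-led group of 1683 nuclei and a Dcn-led group of 815. The Dcn-led group held more Gria4 (365 ± 61.2 against 121 ± 21.1 CPM), more Grik4 (217 ± 44.1 against 72.8 ± 26.4 CPM) and more Grik3 (25.04 ± 8.68 against 5.78 ± 2.57 CPM), and more Grik2, each in 8 of 8 libraries, while Gria1 and Gria2 were higher in the Galntl6-led group in 8 of 8. Of all genes compared between these groups, 26.2% kept 1 direction in all 8 libraries. In dentate granule-like neurons an Il1r1/Capn3-led group of 3060 nuclei held more Gria1 than a Trpc6/Stxbp6-led group of 2442 (2582 ± 353 against 2035 ± 406 CPM, 8 of 8), with Gria2 and Gria3 also higher in 8 of 8; the share of all genes with 1 direction was 21.7%. Astrocyte-like nuclei split into a Gfap-led group of 1578 and an Slco1c1-led group of 1181, and Gria2 was lower in the Gfap-led one in 8 of 8 libraries (699 ± 66.3 against 1278 ± 106 CPM; 15% of genes kept 1 direction).

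Over the 17 type means, the genes most like each member in pattern were named by Pearson correlation of log2 levels among 11767 genes; the types share their libraries, and no p is given. They were Ola1 for Gria1 (r = 0.91), Apba2 for Gria2 (0.96), Grm5 for Gria3 (0.95), Gas2 for Gria4 (0.91), Erbb4 for Grik1 (0.93), Tmem132b for Grik2 (0.89), Tshz3 for Grik3 (0.86), Rad18 for Grik4 (0.84) and Npdc1 for Grik5 (0.94). Those second in likeness were Timm9 (0.90), Gm2163 (0.93), Gm17202 (0.93), Iqcb1 (0.90), Rasgrp2 (0.93), Epb41l4b (0.88), Cdh13 (0.82), Slit1 (0.82) and AC153912.1 (0.94), in the same order of members. Erbb4 had itself been used as a marker. Among the members the most alike pair was Gria2 and Grik5 (0.89), and the least alike was Grik1 and Grik4 (-0.45).

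Of 45 partner genes, 44 were in the matrix, and the 3 per role with the largest ratio of the highest type to the median type are described. Among AMPA auxiliary subunits, Cacng4 reached 760.3 ± 91.4 CPM in OPC-like nuclei, 106-fold over the median type; Olfm3 reached 412 ± 90.6 CPM in Sst-like interneurons and Shisa8 29.7 ± 21.7 CPM in Vip-like ones. Among factors of assembly and turnover, Abhd12 was highest in microglia-like nuclei (705 ± 49.9 CPM), Porcn, which acts in AMPA receptor trafficking, in CA2-like nuclei (98.6 ± 17.2 CPM) and Frrs1l, needed for receptor biogenesis, in Vip-like nuclei (129.8 ± 29.1 CPM). Of the scaffolds, Grip1, which binds the GluA2 tail, reached 6672 ± 971 CPM in Cnr1-like interneurons, Grip2 54.5 ± 16.3 CPM in Pvalb-like ones and Nptx1 169 ± 38.8 CPM in dentate granule-like neurons. Of the kainate receptor partners, C1ql2 (177 ± 61.4 CPM) and C1ql3 (877 ± 179 CPM), secreted organizers at mossy fibre synapses, were highest in dentate granule-like neurons, and the auxiliary subunit Neto1 in Cnr1-like interneurons (846 ± 292 CPM). Among the editing genes, Adarb2, which lacks known editing activity, reached 15596 ± 1561 CPM in Cnr1-like interneurons, while Adarb1, whose product edits the Gria2 Q/R site, had its highest mean in Pvalb-like nuclei (167 ± 48.9 CPM), 2.01-fold over the median type.

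Deletion of Gsap was compared with WT in each type, with summed UMIs per mouse in edgeR and a call at an adjusted p under 0.05 with a log2 ratio over 0.3 in size. Labels do not tie the mice to separate litters beyond their number, so p-values measure the spread between these 3 and 3 libraries. None of the 144 member tests was called, against 1 call in 151859 tests over all genes (0.000659%). By unadjusted p under 0.05, 6 of 144 member tests passed (4.17%; 1 higher in GKO, 5 lower), against 2.12% over all genes, and DESeq2 gave 4 (2.78%), where it gave 0.639% over all genes. Leaving out 1 mouse moved the count from 3 (without GKO 2) to 9 (without WT 2), and the direction turned without WT 1 (6 higher, 2 lower) and without GKO 3 (3 higher, 1 lower). The median log2 ratio of GKO to WT over the 144 was -0.01, and ran from -0.06 to 0.11 when 1 mouse was left out.

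**Figure D4:**
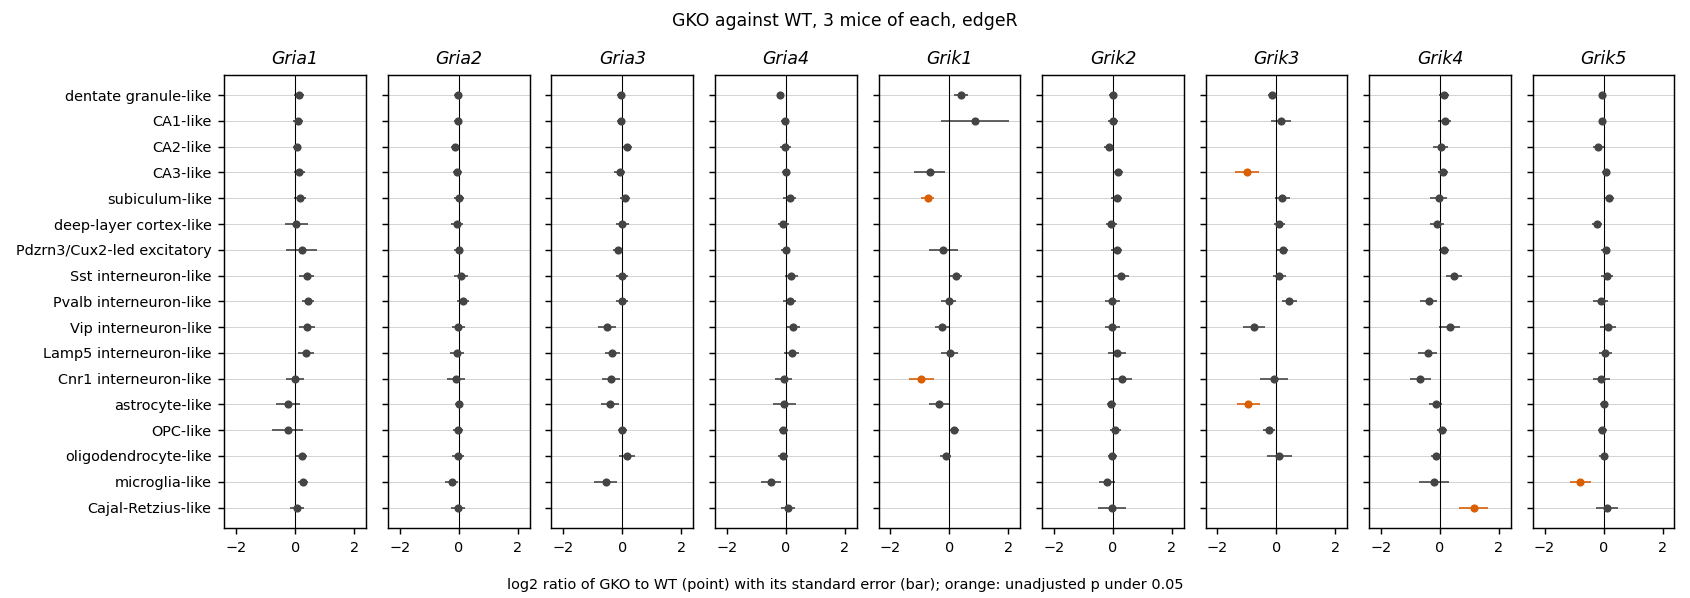
Log2 ratio of GKO to WT (points) with its standard error (bars) for the 9 members in 17 cell types, from edgeR with 3 mice per genotype; orange points have an unadjusted p under 0.05. Of 144 points, 6 are orange and no member passed the threshold after adjustment.

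The smallest unadjusted p belonged to Grik1 in subiculum-like neurons. The WT libraries held 154, 140.2 and 101 CPM and the GKO libraries 46.6, 83.7 and 97.5 CPM, so that every GKO library lay below every WT library. The log2 ratio was -0.74 (SE 0.24, adjusted p = 0.9998, edgeR). How many of all genes lacked overlap in this way was not counted. In Cnr1-like interneurons Grik1 had a ratio of -0.96, but the libraries overlapped (410, 157 and 676 CPM in WT; 123, 284 and 215 CPM in GKO). The other 4 were Grik3 in CA3-like (-0.998) and astrocyte-like nuclei (-0.95), Grik5 in microglia-like nuclei (-0.78) and Grik4 in Cajal-Retzius-like nuclei (1.14), all low in UMIs. Gria2 ranged from -0.24 to 0.14 over its 17 types, Grik2 from -0.19 to 0.30.

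Gria1 had a positive ratio in 14 of 17 types, none past an unadjusted p of 0.05. All types share the same mice, and how many of all genes were positive as often was not counted. In Pvalb-like interneurons the WT libraries held 2118, 2482 and 2451 CPM and the GKO libraries 3031, 3302 and 2931 CPM, which did not overlap (0.43, SE 0.22, adjusted p = 0.9999, edgeR). In pooled interneurons the WT libraries held 2129.9, 2062 and 2283 CPM and the GKO libraries 2957, 2552 and 2482 CPM, again without overlap (0.36). The share of all genes without overlap between the WT and GKO libraries was not counted, so neither case is read as a result about Gria1. With mice paired by replicate number as a block, Gria1 passed an unadjusted p of 0.05 in both, but the adjusted p = 0.403 in Pvalb-like and adjusted p = 0.597 in pooled interneurons left neither called (edgeR). With the same block, 13 of 144 member tests passed an unadjusted p of 0.05 (9.03%; 7 higher, 6 lower), against 4.93% over all genes, and none was called while 44 tests over all genes were. In an alternative added after the data were seen, the 4 mice numbered 2 and 3, which share a date and low Xist, gave Gria1 a log2 ratio of 0.24 in pooled interneurons and 0.38 in Pvalb-like ones, and Grik1 a ratio of -0.39 in subiculum-like neurons; 10 of 143 member tests (6.99%) then had an unadjusted p under 0.05, against 4.65% over all genes, and none was called.

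The Gria2 share of AMPA UMIs was 18.8%, 16.9% and 16.5% in the interneurons of the WT mice and 15.1%, 15.4% and 15.3% in those of the GKO mice, without overlap. The difference of -2.09 percentage points had p = 0.1 in an exact permutation test, the smallest that 3 against 3 can give. In the J20 pair it went the other way, at 16.0% for J20;WT against 18.5% for J20;GKO. In excitatory neurons the GKO shares overlapped the WT shares (-1.99 points, exact permutation p = 0.4), and no type passed after adjustment over types.

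The partner genes gave 564 tests with 0 calls in edgeR; 18 (3.19%) had an unadjusted p under 0.05, 7 higher and 11 lower in GKO, and DESeq2 gave 7 (1.24%, against 0.639% over all genes).

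Among the WT and GKO mice, both mice numbered 1 stood apart for several members. They lay above the other 4 without overlap in 42 of 147 member and type pairs (28.6%) and below in 5 (3.40%), where all genes gave 11.2% above and 18.2% below. Grik2 was higher in them in 12 of 17 types, Gria1 in 9 and Gria3 in 7, and Grik5 was lower in 3. In dentate granule-like neurons Gria1 stood at 2898 CPM in WT 1 and 2949 CPM in GKO 1, and at 2048 to 2476 CPM in the other 4 mice. These mice also differ in date and in Xist, as given above.

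**Figure D5:**
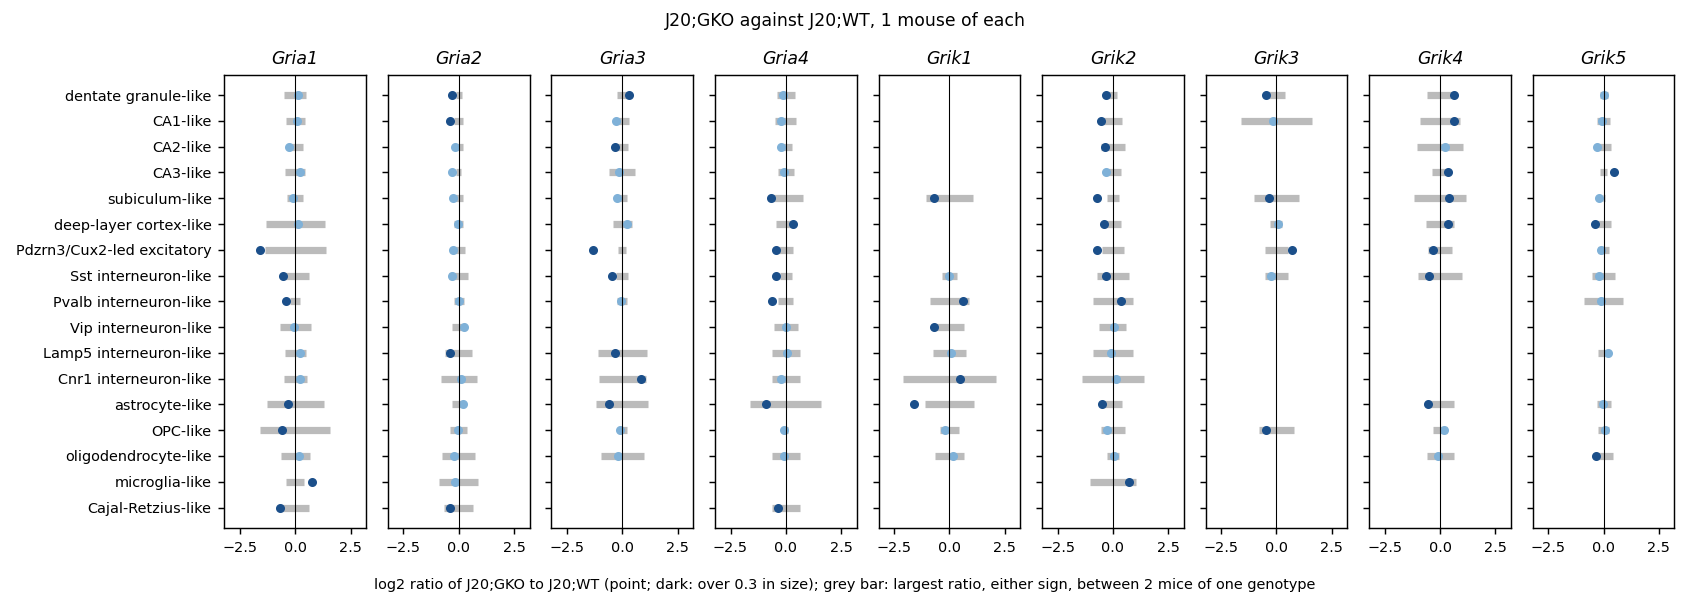
J20;GKO over J20;WT as log2 ratios (points, dark where over 0.3 in size) for the 9 members in 17 cell types, 1 mouse per genotype, over grey bars that reach, to either side, the largest ratio found within the WT or within the GKO group. Of 120 points, 55 are dark and 30 lie outside their bar, where 24.6% of all genes did.

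With 1 mouse of each genotype, the J20 pair allows no test, and the values compare 2 libraries. Of 120 member and type pairs with at least 50 UMIs, 55 (45.8%) had a log2 ratio over 0.3 in size, close to the 46.1% of all genes; 15 were higher in J20;GKO and 40 lower. Scaling by UMIs per nucleus turned this split, with 71 of 120 past 0.3 (67.9% of all genes) and 59 of them higher, because all genes then had a median of 0.43 and the members 0.29. The median over the members in CPM was -0.17, where the medians of all genes lay between -0.09 and 0.04 by type, so that the members' median lay below that of all genes under both scalings. The pair also differs in Xist, as given above, which bears on the X-linked Gria3 in particular; its part was not tested.

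In the J20 pair, ratios above 0 in CPM were fewer than those below for 8 of the 9 members, from 3 of 16 types for Gria4 and 3 of 14 for Gria3 to 8 of 17 for Gria1. Grik4 was above 0 in 7 of 11. All types share the same pair of libraries, and the share of all genes above 0 was not counted. These counts are for CPM only, as scaling by UMIs per nucleus turned the split given above. Gria2 was 1520.4 CPM in dentate granule-like neurons of J20;WT and 1218 CPM in those of J20;GKO (-0.32) and 2244 and 1715 CPM in CA1-like neurons (-0.39), with a ratio above 0 in 4 of 17 types. Grik2 was lower by over 0.3 in 8 of 16 types and higher in 2; pooled excitatory neurons held 1445 and 989 CPM (-0.55). Grik4 was higher by over 0.3 in 5 of 11 types, as in dentate granule-like neurons (0.63), and lower by over 0.3 in 3. Grik5 in CA3-like neurons was 192 CPM for J20;WT against 267 CPM for J20;GKO (0.48), the lowest and the highest of the 8 libraries. In Pvalb-like interneurons Gria4 had a ratio of -0.60 and Gria1 of -0.43, and the Pdzrn3/Cux2-led neurons had the lowest ratios of Gria1 (-1.57) and of Gria3 (-1.30). Of the 120 ratios, 30 were larger than any ratio within the WT or within the GKO group in the same type, a share like the 24.6% of all genes.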

How the data were processed

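The authors deposited raw UMI counts per gene and nucleus from 10x libraries, made with Cell Ranger 3.0.2 on mm10 per the file headers; the submitters' processing notes also name Seurat 3.0 and R 3.6.2. Whether intronic reads were counted is not given in the sources used here. Nuclei with 200 to 7500 genes and at most 5% mitochondrial counts were kept. They were integrated and clustered in Seurat 5.3.0 (sctransform 0.4.2, 3000 anchor features, 30 components), with the members and partner genes left out of the features, and clusters were named from marker lists by rules completed after the clusters were seen. Scrublet (scanpy 1.11.5) called 3.45% to 6.50% of nuclei as doublets in 6 libraries but 1 and 0 nuclei in WT 1 and GKO 1, where it did not work; clusters with over 25% of nuclei called in the 6 libraries were left unnamed, and an alternative left out the top 6% of scores in every library. UMIs were summed per type and library.

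Levels are UMIs per 1000000 UMIs of the type (CPM). Orders of types used log2(CPM + 1) and an exact sign-flip permutation test over libraries in scipy 1.17.1. Genotypes were compared in edgeR 4.0.16 (TMM, filterByExpr, robust quasi-likelihood test, Benjamini-Hochberg adjustment over the genes of a type, 3 libraries per group), with DESeq2 1.42.0 as an alternative. J20 ratios used a prior count of 0.5. Deviations of same-numbered WT and GKO libraries from their group means correlated at r = 0.68, 0.27 and 0.41, over 0.1 in every pair, so the block by number was run as a paired alternative; WT 2 with GKO 3 (0.28) and WT 3 with GKO 2 (0.44) correlated as well, so only number 1 stood apart. The scripts were tested on simulated data.

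Named were Gsap, the 9 members, the 3 partner genes per role with the largest ratio of 1 type to the median type, the 2 genes most like each member among those with at least 20 CPM in a type, and markers; some partner genes are not reported here. The members and lists were chosen with earlier results of these data known. Sequences and coordinates are from GENCODE M21.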

Additional observations from a re-analysis of the deposited data

How the results depend on the processing

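No member was called between GKO and WT under any of the alternatives run: other size factors, library size alone, DESeq2, no filter, the replicate block, a date term, at least 1000 UMIs per nucleus, doublet removal, leaving out each mouse, and the 4 mice numbered 2 and 3 (added after the data were seen). Partner genes went from 0 to 1 calls over the fits that left out 1 mouse; the 1 was C1ql3 in Cnr1-like interneurons without GKO replicate 3 (-3.21, adjusted p = 0.0437, edgeR). The 33 separated neighbour pairs became 0 with the 6 WT and GKO libraries, whose smallest p is 0.0312, reached by 47 of 144 pairs. TMM scaling over both neuron classes turned the Gria1 ratio of interneurons to excitatory neurons to -0.059; the cause was not tested. Gria1 in Cnr1-like interneurons, -0.01 with all mice, changed sign to 0.01 (0.0147) without a filter, 0.01 (0.0085) with the replicate block, 0.01 (0.0058) with the date term, 0.04 (0.0363) without likely doublets and 0.12 with the mice numbered 2 and 3, and ran from -0.13 to 0.13 when 1 mouse was left out (0.036 without GKO replicate 3); the cause was not tested. The replicate block changed no call among members.

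In the J20 pair the count past 0.3 was 37 of 90 pairs with at least 200 UMIs (37.8% of all genes) and 50 of 115 without likely doublets (46.2% of all genes). The Gria2 share difference between GKO and WT ran from -3.56 to -0.56 points in excitatory neurons and from -2.54 to -1.40 points in interneurons when 1 mouse was left out; paired by replicate number its smallest possible exact p is 0.25. Types with few nuclei (Cnr1-, CA2- and Cajal-Retzius-like) limit the depth of the lowest members.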
